A study of Rattus norvegicus with 79 samples.

Results

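Gene expression in the CA1 field of the hippocampus was compared between 13 aged rats that were trained to find a hidden platform and were classed as learning unimpaired, and 8 aged yoked rats that swam with no platform. The animals were chosen by their labels alone, and they account for 21 of the 79 arrays of the study. All were male Fischer 344 rats of 24 months, housed in pairs, with 1 array per animal, and the labels name no drug treatment or genetic change in either group. The brain was taken 1 day after the last trial, under pentobarbital in every animal, and the CA1 cell layer was punched from slices kept in an RNA preservative. Yoked rats had the pool and the swimming in common with the trained rats but had no platform to find. The labels state neither how an animal was scored as unimpaired nor whether each yoked rat was matched to 1 trained rat. Other groups are set beside this comparison. At 24 months they are 10 impaired hidden platform rats, 8 visible platform rats and 16 hidden platform rats marked with a letter B. The labels do not explain this letter. At 3 months they are 6 hidden platform and 6 yoked rats. The 10 impaired and 8 visible platform rats, with 5 cage control rats of 24 months, also enter the estimate of spread behind each standard error. The fits of young rats also hold 4 visible platform and 3 cage control rats of 3 months.

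In the water maze a rat uses cues around the pool to swim to a platform under the surface, a task that depends on the hippocampus. CA1 pyramidal neurons are the main output of the hippocampus, and strengthening of their glutamatergic synapses, through NMDA receptors, calcium and cAMP dependent kinases and newly made RNA and protein, is a widely used model of how spatial memory is stored. Immediate early genes such as Fos, Egr1 and Arc are transcribed within minutes of neuronal activity and then decline over hours. A sample taken a day after training therefore reads what persists or recurs at that time.

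Markers of pyramidal neurons were bright on the arrays of both groups. Hpca, which encodes the calcium sensor hippocalcin, had a signal between 7328 and 15270.0 in unimpaired rats, with a median of 12583, and between 1969 and 15855 in yoked rats, with a median of 11408. Nrgn, which encodes the calmodulin-binding protein neurogranin, had medians of 17389 and 17817. Of 15 measured genes that mark pyramidal neurons, 11 were in the brightest of 5 equal bins of all genes by mean signal. Ttr, a choroid plexus marker, ranged from 331 to 5601 in unimpaired rats and from 468 to 5083 in yoked rats, with ranges that overlap throughout. These 3 genes were chosen as defining markers. In such bulk samples, fewer cells of a type and less RNA per cell cannot be told apart.

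Unimpaired array 81 and yoked array 63 stood apart from the rest. Their median Spearman correlations with the other arrays of the study were 0.785 and 0.642, while the other 19 arrays had values between 0.872 and 0.933. For the 2 brightest probe sets of a gene, each set relative to its median over the arrays, the mean disagreement was taken per array. It was 0.943 on array 81 and 1.46 on array 63 (log2), against at most 0.607 on the others. Control transcripts read at both ends had a 3′ over 5′ signal ratio (log2) of -0.043 on array 63 and of 2.38 to 4.11 on the other 20. Other groups held such arrays too: 2 of 10 impaired arrays, with correlations of 0.223 and 0.445, 4 of 8 visible platform arrays, between 0.645 and 0.794, and 1 of 6 young hidden platform arrays, at 0.661, against 0 of 16 B arrays and 0 of 6 young yoked arrays below 0.85. Among arrays that enter only the estimate of spread, 1 of 5 aged cage control arrays was below 0.85, at 0.778. So were 2 of 3 young cage control arrays (0.634 and 0.810) and 2 of 4 young visible platform arrays (0.715 and 0.768). None of the 5 quality measures differed between the groups past an adjusted p of 0.05 in two-sided exact permutation tests (adjusted p between 0.479 and 0.654 with all arrays, and between 0.165 and 0.754 without these arrays). The median signal of an array averaged 128.6 ± 18.5 in unimpaired and 146.5 ± 10.5 in yoked rats without arrays 81 and 63 (SD, n = 12 and 7, exact p = 0.033, adjusted p = 0.165).

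Over the whole array, no gene differed between unimpaired hidden platform rats and yoked swimmers past the threshold of the test. Values were compared as log2(signal + 15) with limma, and a log2 difference is unimpaired minus yoked, given with its standard error. Of 5244 probe sets, 0 had a Benjamini-Hochberg adjusted p under 0.05 (0.0%), and the smallest adjusted p was 0.485. With each gene read from its probe set of highest mean signal, 0 of 3233 genes passed (0.0%). At an unadjusted p under 0.05 there were 114 genes (3.53%), 29 of them higher (0.897%) and 85 lower (2.63%) in unimpaired rats, where 161.65 would be expected if no gene differed. By sign alone, 1803 genes (55.8%) lay lower. No gene had groups that did not overlap (0.0%). Without arrays 81 and 63 the count was 69 genes (2.13%), and in a fit of the 21 arrays alone it was 293 (9.06%), again with 0 past the adjusted threshold in both. The 95% interval of the difference extended a median of 0.63 to each side, and for 2108 genes (65.2%) it lay wholly between log2 differences of -1 and 1. Because no gene passed, each value below is a description with its error, and genes are named as those of smallest p or as members of gene lists. The p-values rest on the spread between arrays, in which animals and array quality are mixed. This spread also takes in arrays of low correlation from the impaired, visible platform and cage control rats. Of the 5244 probe sets, 194 had an unadjusted p under 0.05, where 262.2 would be expected. The count was 125 without arrays 81 and 63, 568 without all arrays of low correlation, and 469 in the 21 arrays alone. Whether it falls below the expected number depends on which arrays enter.

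The probe set with the smallest p of all 5244 belonged to Homer1, a scaffold protein of the postsynaptic density that links metabotropic glutamate receptors to internal calcium stores and has a short form induced by neuronal activity. In all, 6 probe sets of Homer1 were measured, numbered here 1 to 6 from the highest to the lowest mean signal, and which transcript form each reads is not given in the sources used here. On probe set 3 the signal was between 753 and 2748 in unimpaired rats, with a median of 1582, against between 572 and 1299 in yoked rats, with a median of 647. All 13 unimpaired rats lay above the yoked median and 11 of them above the highest yoked rat. The log2 difference was 1.10 ± 0.26 (95% interval 0.58 to 1.62, limma p = 9.3e-05, adjusted p = 0.485). It was 1.12 without arrays 81 and 63. With array quality weights, which give deviating arrays less influence, the difference was 1.12 and the limma adjusted p was 0.0106, and the weights gave 3 calls in all: this probe set, Slit3 (adjusted p = 0.0477) and a probe set of the kinase gene Mapkapk3, named here after its value was seen (log2 difference with weights -1.08, adjusted p = 0.013).

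The other Homer1 probe sets did not all go the same way. Probe set 1, the brightest, ranged from 2503 to 6871 with a median of 4537 in unimpaired rats, against 2112 to 4054 with a median of 3099 in yoked rats, and 9 of 13 unimpaired rats exceeded the highest yoked rat. Its difference was 0.65 ± 0.31 (limma p = 0.043, adjusted p = 0.831). Probe set 5 gave 0.56 ± 0.26 and probe set 2 gave 0.41 ± 0.26. Probe set 4, at medians of 785 in unimpaired and 915 in yoked rats, gave 0.02 ± 0.20, and probe set 6, the dimmest, gave -0.71 ± 0.47. In all, 4 of 6 had higher medians in unimpaired rats, and the plot of Homer1 by probe set shows that the groups separate most on probe set 3.

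**Figure D1:**
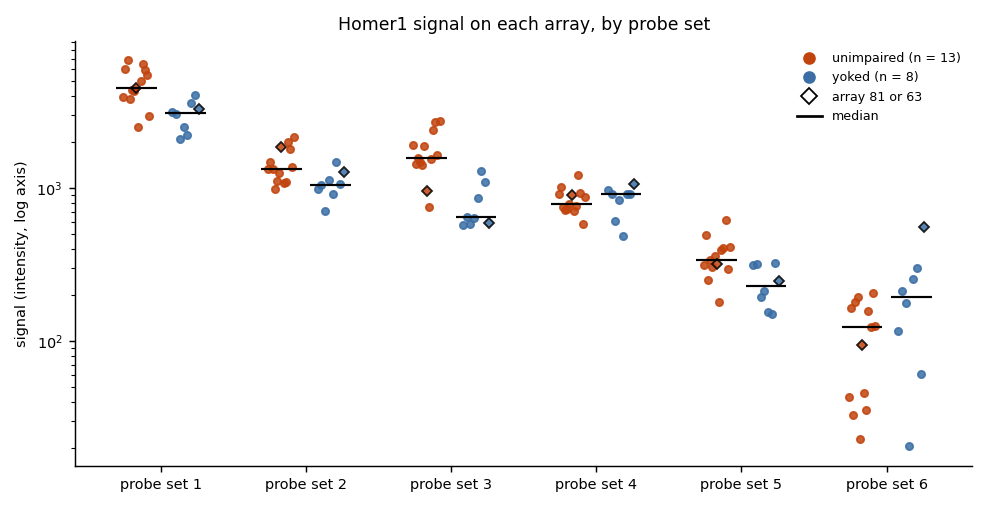
Signal of 6 Homer1 probe sets on each of 13 unimpaired and 8 yoked arrays, on a log axis, with group medians as bars and arrays 81 and 63 as outlined diamonds. On probe set 3, 11 of the 13 unimpaired arrays lie above the highest yoked array, while probe sets 4 and 6 have lower medians in unimpaired rats.

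Against the same 8 yoked rats, Homer1 probe set 3 differed by 0.57 in impaired hidden platform rats, by 0.14 in visible platform rats and by 0.83 in B hidden platform rats. The 3 groups share the yoked rats, so their differences are not independent of each other. Set directly against impaired rats, which had the same training, unimpaired rats were higher by 0.54 ± 0.24 (limma p = 0.031, with 12.9% of all 5244 probe sets at an unadjusted p under 0.05 in that comparison and 0 past the adjusted threshold), and by 0.48 (limma p = 0.052) without the arrays of low correlation. Against visible platform rats they were higher by 0.96 (limma p = 0.0005, with 14.6% of probe sets at an unadjusted p under 0.05 and 0 adjusted calls), and by 1.01 (limma p = 0.0018) without the arrays of low correlation, which leaves 4 visible platform rats. In rats of 3 months, hidden platform minus yoked gave 0.42 ± 0.36, and the age difference, aged minus young, was 0.68 ± 0.43 (limma p = 0.117).

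With each gene read from its brightest probe set, which for Homer1 is probe set 1, the 12 genes of smallest p that were higher in unimpaired rats were of mixed function. Slit3 encodes a secreted guidance cue of axons, and its signal was between 64.8 and 362 with a median of 261 in unimpaired rats, against 44.0 to 364 with a median of 86.5 in yoked rats. Its difference was 1.02 ± 0.34 (limma p = 0.0042, adjusted p = 0.831), and 12 of 13 unimpaired rats lay above the yoked median, although 1 yoked rat was higher than all of them. Atrn encodes attractin, a membrane protein whose loss in rats leads to defects of myelin. It had 961 to 1783 with a median of 1221 in unimpaired rats, against 813 to 1085 with a median of 942 in yoked rats, and 12 of 13 unimpaired rats exceeded the highest yoked rat. The difference of 0.45 ± 0.17 had the smallest standard error of these 12 genes (adjusted p = 0.831).

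Genes of mitochondria and of protein handling were also among the 12. Ndufs4, a subunit of respiratory complex I, had 508 to 2384 with a median of 1699 in unimpaired rats, against 396 to 1642 with a median of 1047 in yoked rats, a difference of 0.62 ± 0.24; a second probe set of it gave 0.15 ± 0.25. Clpb, a mitochondrial disaggregase, differed by 0.58 ± 0.26, and Mmadhc, which acts in vitamin B12 handling, by 0.66 ± 0.27, each with 13 of 13 unimpaired rats above the yoked median. A second Clpb probe set gave 0.14 ± 0.30. Arl10, an ARF-like GTPase, was also above the yoked median in 13 of 13 unimpaired rats (0.67 ± 0.27). Arl1, a GTPase of the Golgi, differed by 0.68 ± 0.26, but its other probe sets gave -0.39 and 0.10. Lysmd4 differed by 0.69 ± 0.26, with medians of 3497 in unimpaired and 2103 in yoked rats, and its second probe set by 0.72 ± 0.46. The myosin heavy chain gene Myh2 (0.82 ± 0.33), the chromatin-associated Phf20 (0.53 ± 0.24), the amidase Ntan1 (0.64 ± 0.27) and the RNA helicase Ddx39b (1.12 ± 0.47) completed the 12. Array 63 had the lowest yoked value of Mmadhc and Ntan1, and without arrays 81 and 63 these genes differed by 0.46 and 0.44. A second Ntan1 probe set gave 0.19 ± 0.36 with all arrays. For Ddx39b the 3 other probe sets gave -0.83, 0.24 and -0.15, so its probe sets disagree in direction.

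The 12 genes of smallest p that were lower in unimpaired rats, again on the brightest probe set of each, included synaptic and myelin genes beside genes of low signal. Outside this ranking, a dimmer probe set of Scarb1 was rank 2 of all 5244 by p (-1.21 ± 0.33, limma p = 0.00068, adjusted p = 0.831). It is named here after its value was seen. On it 11 of 13 unimpaired rats lay below the lowest yoked rat, and the difference from yoked rats was -1.29 in impaired, -0.47 in visible platform and -1.07 in B rats. Slc7a5, the large neutral amino acid transporter of the blood-brain barrier, had 257 to 660.3 with a median of 361 in unimpaired rats, against 499.6 to 1011 with a median of 692 in yoked rats. None of the 13 unimpaired rats reached the yoked median and 10 lay below the lowest yoked rat, and the difference was -0.79 ± 0.26 (limma p = 0.0034, adjusted p = 0.831). Syn1 encodes synapsin I, which tethers synaptic vesicles. Its signal was 217 to 956 with a median of 492.5 in unimpaired rats, against 573 to 1869 with a median of 654 in yoked rats, and 8 unimpaired rats lay below the lowest yoked rat (-0.70 ± 0.24, adjusted p = 0.831). Dlgap1, a scaffold that binds PSD-95, was below the lowest yoked rat in 11 of 13 unimpaired rats, with medians of 155 in unimpaired and 243 in yoked rats (-0.84 ± 0.31). The highest yoked value of Syn1, Bst1 and Flnc came from array 63, and without arrays 81 and 63 their differences were -0.60, -0.61 and -0.46.

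Several genes with signals near the low end of the array belonged to the same 12. Dpp4, a dipeptidyl peptidase, had 23.6 to 216 with a median of 86.7 in unimpaired rats, against 114 to 629 with a median of 184 in yoked rats, and 10 of 13 unimpaired rats lay below the lowest yoked rat (-1.16 ± 0.38). Ctla4, an inhibitory receptor of T cells, differed by -1.14 ± 0.36 between medians of 106 and 278, and Cyp2d3, a cytochrome P450, by -1.02 ± 0.33 between medians of 112 and 297. The lens crystallin Crybb3 (-1.12 ± 0.39), the kynurenine aminotransferase Kyat1 (-0.75 ± 0.26), the ADP-ribosyl cyclase Bst1 (-0.88 ± 0.33), the securin gene Pttg1 (-1.07 ± 0.40) and the actin crosslinker Flnc (-0.69 ± 0.26) made up the rest with Mag, which is described with the myelin genes. At such signals log2(signal + 15) understates a fold.

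**Figure D2:**
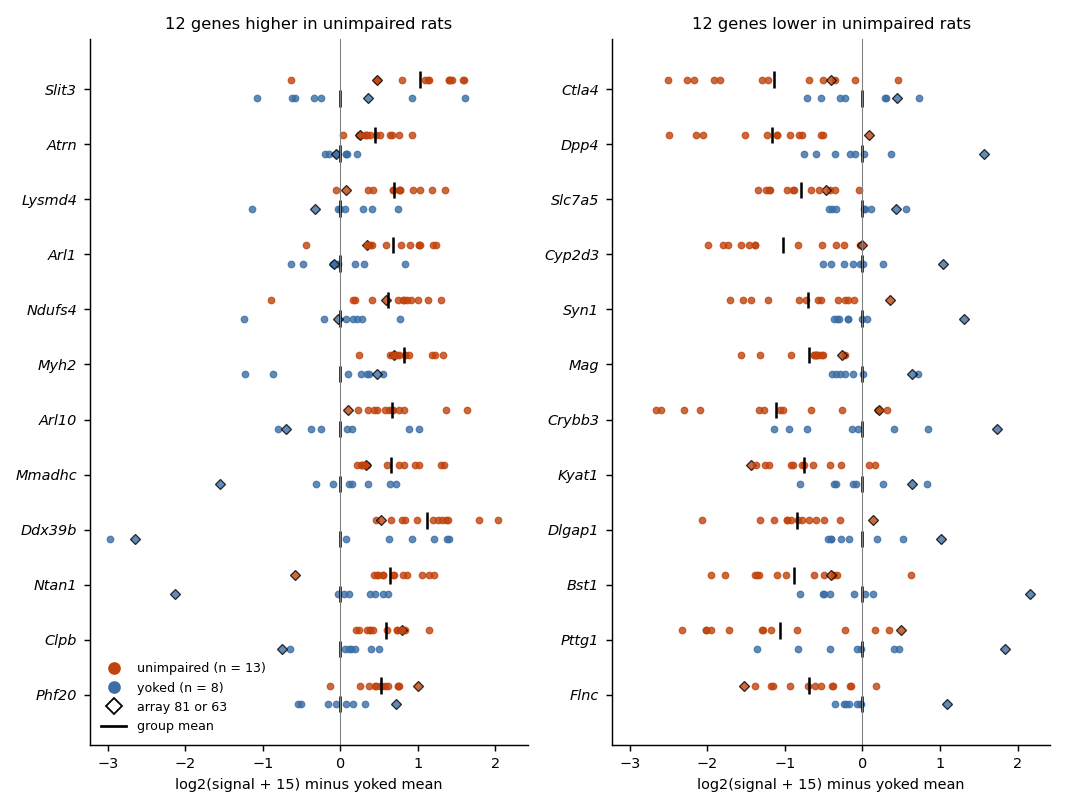
log2(signal + 15) of each array minus the yoked mean, for the 12 genes of smallest p in each direction, with unimpaired rats above yoked rats in each row, group means as bars and arrays 81 and 63 as outlined diamonds. Every row shows overlapping groups, and array 63 is the extreme yoked value of several genes.

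The counts in the gene lists below stand against 3.53% of all genes at an unadjusted p under 0.05, 0.897% higher and 2.63% lower, and against 55.8% of all genes lower by sign. In the lists 23 genes had such a p, and without arrays 81 and 63 it held for 11 of them. The other 12 kept their direction at limma p between 0.0514 and 0.132: Grin2d, Gabra4, Vamp1, Nfasc, Adrb3, Atp1b2, RT1-Ba, RT1-S3, Rpl30, Insr, Add3 and Flnc. Some members had such a p only without arrays 81 and 63, among them Grik4, Nrxn3 and Adcy8 (limma p = 0.037, 0.040 and 0.043). Without these arrays the count was 1 channel gene (0 with all arrays), 3 myelin genes (2) and 3 oxidative phosphorylation genes (2), against 2.13% of all genes.

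Immediate early transcription factors showed no common direction. Of 20 listed, 14 were measured, 0 had an unadjusted p under 0.05, 7 lay higher and 7 lower, and the median difference was -0.01, or 0.09 without arrays 81 and 63, against -0.05 over all 3233 genes. Fos had 342 to 1392 with a median of 719 in unimpaired rats, against 574 to 2477 with a median of 812 in yoked rats, the highest of them array 63, and the difference was -0.42 ± 0.31 while a second probe set gave 0.44 ± 0.34. On that dimmer probe set 13 of 13 unimpaired rats lay above the yoked median, at medians of 157.4 in unimpaired and 70.75 in yoked rats. Without arrays 81 and 63 the first gave -0.30 (limma p = 0.339) and the second 0.69 (limma p = 0.034). Egr1 was bright in both groups, with medians of 16208 in unimpaired and 16173 in yoked rats (0.14 ± 0.40, 95% interval -0.65 to 0.94), and its 3 dimmer probe sets gave 0.68 ± 0.36, -0.45 ± 0.41 and 0.05 ± 0.34. The probe sets of the nuclear receptor gene Nr4a1 disagreed in direction (0.30 ± 0.28 on the brighter and -0.32 ± 0.26 on the dimmer), while Nr4a3 (0.35 ± 0.27) lay higher, as did Klf10 (0.68 ± 0.41), for which 8 of 13 unimpaired rats exceeded the highest yoked rat, and the growth regulator Myc lay lower (-0.60 ± 0.36).

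Among the effectors induced by activity, Homer1 alone had an unadjusted p under 0.05, of 14 measured genes in a list of 19 (median difference 0.05, or -0.06 without arrays 81 and 63). Arc, which acts in the removal of AMPA receptors from synapses, had 1521 to 3629.8 with a median of 2579 in unimpaired rats, against 636 to 4014 with a median of 2597 in yoked rats. The groups overlapped throughout, and the difference was 0.16 ± 0.32 with all arrays and -0.04 without arrays 81 and 63, so its sign rests on these arrays. Ptgs2, the inducible cyclooxygenase, gave 0.00 ± 0.34 and -0.57 ± 0.43 on a dimmer probe set, and the phosphatase Dusp1 gave 0.24 ± 0.30. Vgf, the precursor of secreted neuropeptides, lay lower (-0.42 ± 0.25), with 12 of 13 unimpaired rats below the yoked median, and Rheb, the GTPase that activates mTOR, gave 0.46 ± 0.32 (0.22 without arrays 81 and 63) and, on a dimmer probe set, -0.23 ± 0.31.

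Neurotrophic factors and their receptors had a median difference of -0.32 over 10 measured genes, 7 of them lower, with 0 at an unadjusted p under 0.05. Bdnf, which supports synaptic strengthening, had 109 to 719 with a median of 205 in unimpaired rats, against 109 to 409 with a median of 228 in yoked rats (0.12 ± 0.31), and its 3 other probe sets gave -0.48, -0.19 and -0.32. Its receptor gene Ntrk2 gave 0.17 ± 0.32. Ntf3 (-0.28 ± 0.25), Gdnf (-0.63 ± 0.47) and Ntf4 (-0.94 ± 0.52), genes of secreted growth factors, lay lower, with Gdnf and Ntf4 at low signal.

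The 3 measured AMPA receptor subunit genes lay higher in unimpaired rats, though within the error. Gria3 had 603 to 2019 with a median of 1103 in unimpaired rats, against 302 to 1902 with a median of 546 in yoked rats. All 13 unimpaired rats lay above the yoked median, but 1 yoked rat was near the top of their range, and the difference was 0.66 ± 0.44 (second probe set 0.63 ± 0.37). Gria2 had 12 of 13 above the yoked median (0.39 ± 0.35, second probe set 0.10 ± 0.33). Gria1 differed by 1.02 ± 0.62 with all arrays and by 0.47 without arrays 81 and 63, at medians of 7213 in unimpaired and 6853 in yoked rats. Kainate receptor subunits went both ways. Grik5 (-0.28 ± 0.23) and Grik2 (-0.42 ± 0.33) lay lower, and 0 of 13 unimpaired rats reached the yoked median of Grik5. Grik4 lay higher, with 11 of 13 unimpaired rats above the yoked median (0.49 ± 0.40, and 0.85 with limma p = 0.037 without arrays 81 and 63). Over the 6 measured AMPA and kainate genes the median difference was 0.44, with 0 at an unadjusted p under 0.05.

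Of 7 measured NMDA receptor genes, 6 lay lower (median -0.28, or -0.15 after quantile normalization) and 1 had an unadjusted p under 0.05. That gene, Grin2d, had 79.4 to 297 with a median of 182 in unimpaired rats, against 116 to 342 with a median of 230.2 in yoked rats (-0.51 ± 0.25, second probe set -0.22 ± 0.35). Grin2a (-0.28 ± 0.27) and Grin2b (-0.30 ± 0.21), the regulatory subunits that prevail in the forebrain, had intervals that include 0. The obligatory subunit gene Grin1 lay higher (0.46 ± 0.38) at the low median signals of 98.1 in unimpaired and 68.5 in yoked rats. Of 11 GABA and glycine receptor genes 8 lay lower (median -0.29, or -0.07 under median centring). Gabra4 was the gene of smallest p among them, with medians of 159 in unimpaired and 267 in yoked rats (-0.77 ± 0.37), while Gabrb2, a bright subunit gene, lay higher in 12 of 13 unimpaired rats (0.44 ± 0.30). Metabotropic glutamate receptors had a median of -0.19 over 5 genes, or 0.03 under median centring, with 0 at an unadjusted p under 0.05.

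Of 15 measured genes of CaM kinases, protein kinase C and calcineurin, 0 had an unadjusted p under 0.05 and the median difference was 0.12, or 0.00 without arrays 81 and 63, where 8 lay lower and 7 higher. Camk2b, a subunit of the calcium kinase that is activated during synaptic strengthening, had medians of 13890.0 in unimpaired and 11434 in yoked rats (0.23 ± 0.47), and Camk2d gave 0.03 ± 0.23, with -0.73 ± 0.38 and -0.16 ± 0.36 on dimmer probe sets. The protein kinase C genes Prkcb (0.13 ± 0.37) and Prkce (0.19 ± 0.45) and the calcineurin subunit gene Ppp3r1 (-0.47 ± 0.28) had intervals that include 0. Other probe sets gave -0.26 ± 0.36 and -0.02 ± 0.45 for Prkcb, and -0.30 ± 0.20, 0.45 ± 0.39 and 0.16 ± 0.29 for Prkce. Among 19 cAMP and cGMP signalling genes (median -0.01, or 0.06 without arrays 81 and 63), Pde4a, which breaks down cAMP, was the one with an unadjusted p under 0.05, at 87.2 to 650.4 with a median of 309 in unimpaired rats, against 303 to 758 with a median of 548 in yoked rats (-0.66 ± 0.32). Adcy8, a calcium-stimulated adenylyl cyclase, lay higher (0.63 ± 0.33). Of 17 MAP kinase pathway genes, 0 had an unadjusted p under 0.05 (median -0.02), and the striatal-enriched phosphatase gene Ptpn5 gave 0.32 ± 0.21.

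Of 22 synaptic vesicle genes, 12 lay higher and 10 lower (median 0.03), but without arrays 81 and 63 the split was 5 higher and 17 lower (median -0.15). With all arrays 2 had an unadjusted p under 0.05, both lower: Syn1 and the vesicle fusion gene Vamp1 (-0.60 ± 0.28; second probe set -1.09 ± 0.45). Of 21 postsynaptic and spine genes (median -0.13, or 0.01 after quantile normalization), 1 had such a p and lay higher, Homer1, and 2 lay lower, Dlgap1 and Ppp1r9b, which encodes the spine protein spinophilin. Ppp1r9b had 969 to 2832 with a median of 1512 in unimpaired rats, against 1298 to 4414 with a median of 2379.6 in yoked rats (-0.64 ± 0.25). Of 19 adhesion genes (median 0.09, or 0.00 without arrays 81 and 63), Cntn2 (-0.85 ± 0.33) and Nfasc (-0.59 ± 0.26), both of which act at the axon and its nodes, lay lower at an unadjusted p under 0.05, and 10 of 13 unimpaired rats were below the lowest yoked rat for Cntn2.

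Of 27 voltage-gated channel genes, 0 had an unadjusted p under 0.05 (median -0.15, or -0.06 without arrays 81 and 63 and 0.07 under median centring). Cacna2d1, an auxiliary subunit of calcium channels, had 2934 to 11102 with a median of 9138 in unimpaired rats, against 449.9 to 8108 with a median of 7076 in yoked rats, and 9 of 13 unimpaired rats exceeded the highest yoked rat (0.95 ± 0.50, 0.62 without arrays 81 and 63). Scn1a, a sodium channel of interneurons, gave 0.63 ± 0.32 with all arrays and 0.33 without these, and the potassium channel gene Kcnd3 gave -0.80 ± 0.41. Receptors for monoamines and acetylcholine lay lower in 26 of 29 genes (median -0.35, or -0.24 after quantile normalization and -0.12 under median centring), with 1 at an unadjusted p under 0.05. That gene was the adrenergic receptor Adrb3 (-0.61 ± 0.29), and the serotonin receptor Htr3a (-0.49 ± 0.26) and the dopamine receptor Drd3 (-0.46 ± 0.25) followed. Of these 29 genes, 18 were in the dimmest 2 of the 5 bins of genes by signal, in which 77.4% and 72.4% of all genes lay lower.

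Of the 16 measured myelin genes in a list of 34, 2 had an unadjusted p under 0.05, both lower, where 2.63% of all genes were lower at such a p, and 10 lay lower in all. The median was -0.21 as deposited, -0.30 without arrays 81 and 63, -0.08 after quantile normalization and 0.01 under median centring, so its direction depends on the scaling. Mag, the myelin-associated glycoprotein of the inner myelin layer, had 374 to 967 with a median of 746 in unimpaired rats, against 860.0 to 1879 with a median of 1001 in yoked rats. Not 1 of the 13 unimpaired rats reached the yoked median, and 11 lay below the lowest yoked rat. The difference was -0.69 ± 0.23 (95% interval -1.16 to -0.21, limma p = 0.0052, adjusted p = 0.831), -0.63 without arrays 81 and 63, and -0.40 ± 0.31 on a second probe set. Mal, a proteolipid of compact myelin, had 249.8 to 1086 with a median of 476 in unimpaired rats, against 579.6 to 1253 with a median of 800.2 in yoked rats (-0.64 ± 0.25). Mog, of the outer myelin surface, was below the yoked median in 13 of 13 unimpaired rats (-0.35 ± 0.25, second probe set -0.88 ± 0.35). The tetraspanin Cd9 was below it in 12 of 13 (-0.62 ± 0.36, second probe set -0.26 ± 0.35). The structural genes Mbp (0.11 ± 0.66) and Mobp (0.06 ± 0.39) lay higher with all arrays and lower without arrays 81 and 63 (-0.54 and -0.28), and the other Mobp probe sets gave -0.53 ± 0.36 and 0.21 ± 0.44.

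Astrocyte genes had a median of 0.12 over 19 genes, 11 of them higher, and of -0.10 without arrays 81 and 63, where 6 lay higher and 13 lower. With all arrays 1 had an unadjusted p under 0.05, the sodium pump subunit Atp1b2 (-0.68 ± 0.29). Its other probe sets gave -0.20 ± 0.54 and -0.09 ± 0.35. Microglia and complement genes had a median of 0.01 over 15 genes (-0.03 without arrays 81 and 63, where 11 lay lower) with 0 at such a p. Aif1 gave 0.57 ± 0.38 on one probe set and -0.42 ± 0.32 on another, and Cd14 gave -0.53 ± 0.32 and -0.15 ± 0.25. Of 18 MHC and interferon genes, 12 lay lower (median -0.18, or -0.02 after quantile normalization and 0.04 under median centring), with RT1-Ba (-0.60 ± 0.29) and RT1-S3 (-0.44 ± 0.22; second probe set 0.12 ± 0.32) at an unadjusted p under 0.05, and 0 without arrays 81 and 63. B2m, the light chain of MHC class I molecules, went the other way, with 2104 to 4739 and a median of 2894 in unimpaired rats, against 1615 to 2486 and a median of 2173 in yoked rats, and 11 of 13 unimpaired rats exceeded the highest yoked rat (0.55 ± 0.30). Endothelial and mural cell genes lay lower in 15 of 16 (median -0.36, or -0.15 after quantile normalization and -0.14 under median centring) with 0 at an unadjusted p under 0.05. Among them were Icam1 (-0.67 ± 0.35) and Nos3 (-0.45 ± 0.27). Their other probe sets lay near 0, at -0.10 ± 0.41 for Icam1 and -0.08 ± 0.32 and -0.02 ± 0.37 for Nos3. Of the 16 genes, 11 were in the dimmest 2 bins by signal, in which 77.4% and 72.4% of all genes lay lower. Genes of choroid plexus, meninges and blood had a median of -0.13 over 16 genes, or -0.02 after quantile normalization, with 0 at such a p. Col1a1 gave -0.56 ± 0.29, and its other probe sets gave -0.36, -0.31 and -0.11.

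Pyramidal neuron genes lay higher in 13 of 15 (median 0.17, or 0.11 without arrays 81 and 63), with 0 at an unadjusted p under 0.05. Of these 15 genes, 11 were in the brightest of the 5 bins by signal, in which 75.4% of all genes lay higher. Itpka, an inositol trisphosphate kinase of dendritic spines, gave 0.86 ± 0.62 with all arrays and 0.19 without arrays 81 and 63. Of 10 genes that mark the neighbouring fields, 4 lay higher and 6 lower (median -0.09, or 0.14 under median centring), and 1 had an unadjusted p under 0.05. That gene, Calb1, the calcium buffer calbindin, had 911 to 2273 with a median of 1756 in unimpaired rats, against 884 to 1585 with a median of 1231 in yoked rats. For Calb1, 9 of 13 unimpaired rats lay above the highest yoked rat (0.48 ± 0.23, limma p = 0.042). Interneuron markers had a median of 0.06 over 16 genes with 0 at such a p, and the parvalbumin gene Pvalb gave 0.48 ± 0.29.

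Genes of the stress hormone axis showed no difference at an unadjusted p under 0.05 in 13 measured genes (median 0.08). Nr3c1, the glucocorticoid receptor gene, had 489 to 905 with a median of 653 in unimpaired rats, against 363 to 818 with a median of 558 in yoked rats (0.24 ± 0.24), and a dimmer probe set gave -0.01 ± 0.30. The mineralocorticoid receptor gene Nr3c2 gave 0.42 ± 0.29, and 0.15 ± 0.21 on a second probe set. Sgk1, a kinase gene that glucocorticoids induce, gave 0.08 ± 0.29 (95% interval -0.50 to 0.66).

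Ribosomal protein genes lay higher in 27 of 36, genes of oxidative phosphorylation in 30 of 36 and proteasome genes in 22 of 25, each with a median of 0.26. In the brightest of the 5 bins by signal, which holds most genes of each of these lists, 75.4% of all genes lay higher. Few had an unadjusted p under 0.05: Ndufs4 and Uqcrc2, both higher, and Rpl30, which was lower (-1.05 ± 0.51) at a low signal. Uqcrc2, a core protein of respiratory complex III, had 1037 to 5348 with a median of 2327 in unimpaired rats, against 1017 to 2173 with a median of 1519.7 in yoked rats (0.60 ± 0.28). Ndufv2 of complex I gave 0.52 ± 0.26, Rpl27 gave 0.60 ± 0.35 with -0.02 ± 0.30 on its second probe set, and the proteasome subunit gene Psmb1 gave 0.78 ± 0.44. Without arrays 81 and 63 the 3 list medians were 0.14, 0.09 and 0.17. Heat shock genes had a median of 0.05 over 22 genes, or -0.02 without arrays 81 and 63 (Hspa5, the chaperone of the endoplasmic reticulum, 0.78 ± 0.44, or 0.28 without these arrays). A second Hspa5 probe set gave 0.25 ± 0.40. Genes of glucose use and insulin signalling had a median of -0.02 over 28 genes, 14 of them lower, and of -0.10 without arrays 81 and 63, where 22 lay lower. The insulin receptor gene Insr lay below the yoked median in 13 of 13 unimpaired rats (-0.93 ± 0.36, -0.68 without these arrays). Cytoskeletal and axon growth genes had a median of 0.19 over 24 genes, or 0.10 without arrays 81 and 63, with the adducin gene Add3 (0.58 ± 0.28; second probe set -0.45 ± 0.31) higher and Flnc lower at an unadjusted p under 0.05, and 0 genes at such a p without these arrays.

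**Figure D3:**
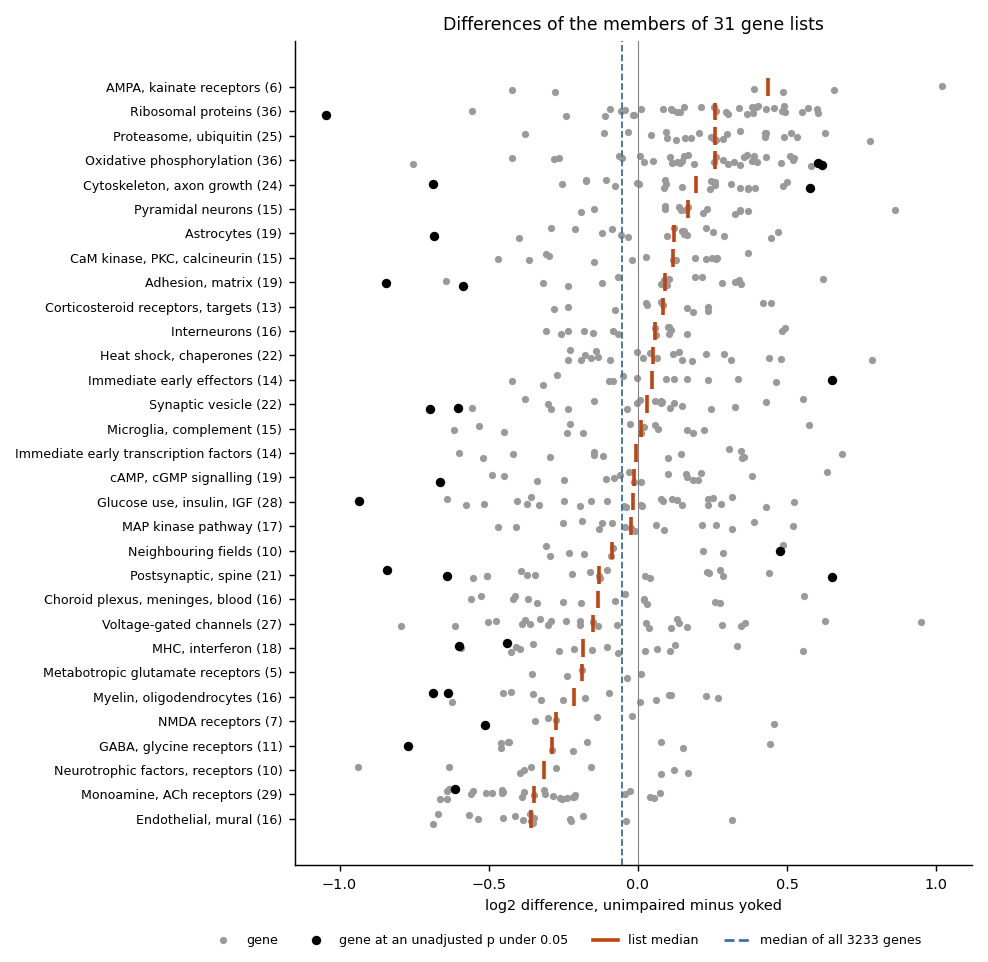
log2 difference, unimpaired minus yoked, of each measured member of 31 gene lists, with the list median as a bar, members at an unadjusted p under 0.05 in black and the median of all 3233 genes (-0.05) as a dashed line. Medians run from -0.36 for endothelial and mural genes to 0.44 for AMPA and kainate receptor genes, and the number of measured genes stands after each name.

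The difference between the groups varied with the signal of a gene. When all 3233 genes were split into 5 equal bins by mean signal over all arrays, the median difference was -0.24 in the dimmest bin, then -0.20, -0.11 and 0.08, and 0.17 in the brightest. Without arrays 81 and 63 the dimmest and brightest bins had medians of -0.18 and 0.07, and after quantile normalization -0.03 and 0.14. Of the 36 ribosomal genes 29 were in the brightest bin, as were 28 of the 36 oxidative phosphorylation genes and 16 of the 25 proteasome genes. Other lists did not follow this order: AMPA and kainate receptor genes, with the highest median of all lists (0.44), had 2 of 6 genes in the brightest bin, and genes of glucose use and insulin signalling, with a median of -0.02, had 15 of 28. The part of signal in the list medians was not tested. Centring each array on its median put the median of all genes at 0.17, against -0.05 without centring, so a small positive or negative value of a list or gene depends on the scaling.

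**Figure D4:**
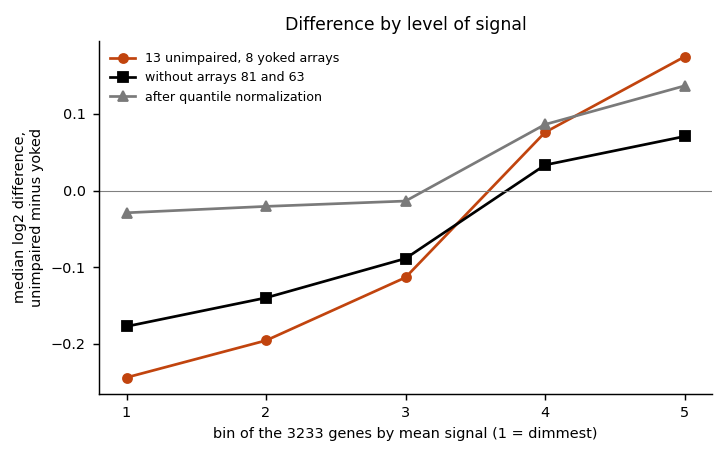
Median log2 difference, unimpaired minus yoked, in each of 5 equal bins of the 3233 genes by mean signal, for all 21 arrays, without arrays 81 and 63, and after quantile normalization. In all 3 settings the dimmest bin has the lowest median and the brightest bin the highest.

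The other aged groups, set against the same yoked rats, give the context of these values. At an unadjusted p under 0.05 there were 274 of 5244 probe sets in impaired rats (5.23%), 244 in visible platform rats (4.65%) and 874 in B rats (16.7%), against 194 in unimpaired rats (3.7%). Past the adjusted threshold there were 0 in impaired, visible platform and unimpaired rats (0.0% each) and 3 in B rats (0.0572%, smallest limma adjusted p = 0.0137), a number that became 200 for B rats without the arrays of low correlation and stayed 0 in impaired and visible platform rats. The 3 were Sparc, which encodes a matrix glycoprotein (1.21 ± 0.24 in B rats and -0.12 ± 0.25 in unimpaired rats), and 2 probe sets with no gene symbol here, all named after their values were seen. Slc7a5 differed from yoked rats by -0.79 in unimpaired, -0.64 in impaired, -0.35 in visible platform and -0.83 in B rats, and Mag by -0.69, -0.40, -0.46 and -0.64 in the same order of groups. Mal was likewise below the yoked mean in each, by -0.64, -0.85, -0.91 and -0.66. Atrn lay above it in each (0.45, 0.45, 0.31 and 0.37), as did Slit3 (1.02, 0.60, 0.97 and 1.03). For B2m and Syn1 the groups did not share a direction: B2m differed by 0.55 in unimpaired, -0.33 in impaired, 0.40 in visible platform and 0.70 in B rats, and Syn1 by -0.70, -0.22, 0.01 and -0.12. Because all of these differences use the same 8 yoked arrays, a yoked group that is high or low for a gene moves them together.

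**Figure D5:**
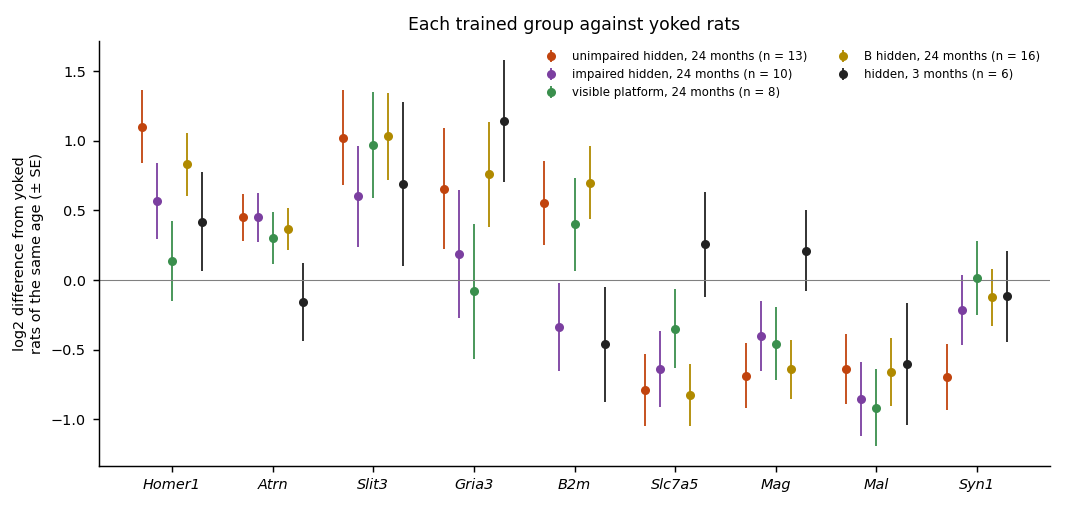
log2 difference from yoked rats of the same age, with its standard error, for 9 genes in 4 trained groups of 24 months and in hidden platform rats of 3 months (Homer1 on probe set 3). The 4 aged groups share 8 yoked rats, and for Mag, Mal and Slc7a5 they lie on the same side of 0.

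In rats of 3 months the same comparison, 6 hidden platform against 6 yoked rats, had 0 of 5244 probe sets past the adjusted threshold (0.0%) and 93 at an unadjusted p under 0.05 (1.77%). Mag differed there by 0.21, Slc7a5 by 0.26, Atrn by -0.16 and Mal by -0.61. The age difference itself, the aged difference minus the young one, had 0 probe sets past the adjusted threshold (0.0%) and 196 at an unadjusted p under 0.05 (3.74%), with a smallest adjusted p of 0.921. The 2 genes of smallest p were Rapgef3, which encodes the cAMP sensor EPAC1, and Slc27a2, a fatty acid transporter. Rapgef3 differed by -0.53 in aged and 1.29 in young rats, an age difference of -1.82, and Slc27a2 by -1.01 in aged and 1.12 in young rats, an age difference of -2.13. The brightest Homer1 probe set gave 0.65 in aged and -0.72 in young rats (age difference 1.37, limma p = 0.0135, adjusted p = 0.921).

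The animal numbers in the labels were spread unevenly over the groups: 5 unimpaired rats and 1 yoked rat had numbers from 1 to 25, 3 and 1 from 26 to 50, 2 and 3 from 51 to 75, and 3 and 3 from 76 to 100. The labels do not say what the numbers mark. Within these ranges Homer1 probe set 3 differed by 1.64, 1.64, 0.98 and 0.48, and Mag by -0.81, -0.29, -0.82 and -0.47, where the first 2 ranges hold 1 yoked rat each. Slc7a5 differed within them by -0.52, -0.82, -0.71 and -0.79. For all 3 genes the direction was the same in each range. All 3 were chosen by their p in these same arrays, so the shared direction is no separate support.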

How the data were processed

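Each deposited value is a linear intensity, the signal of a probe set on an array; the submitters' processing notes name MAS5 as the software. Per the labels' protocols, RNA went through 2 rounds of amplification, which can favour the 3′ end of transcripts. Arrays had been scaled before deposit: their trimmed means lay between 500.1 and 501.0. Of 8799 probe sets, 59 controls were left out, as were the 40% of the rest that were dimmest on average over the 79 arrays. Of the 5244 kept, 4284 had 1 gene symbol, and a gene was read from its probe set of highest mean signal.

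Values were tested as log2(signal + 15) with limma 3.58.1 in R 4.3.3 (lmFit, eBayes with trend), two-sided, with Benjamini-Hochberg adjustment over all 5244 probe sets. The fit of aged rats held 44 arrays, with a mean per group, that with B rats 60, that of young rats 19 and that of the age difference 63. The fit was tested on simulated data. Array quality was compared by exact permutation tests with SciPy 1.17.1. The number of arrays limits the precision. Arrays 81 and 63 were left out in an alternative chosen after seeing the data, as were arrays of low correlation (a median under 0.85 with the others) in the comparisons with visible platform rats and of other trained groups with yoked rats.

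Genes were named by rule: the 12 of smallest p in each direction, the 4 of smallest p in each list, and any measured member of 8 lists on activity, glutamate receptors, kinases, growth factors, myelin and stress hormones. The members and lists were chosen with earlier results of these data known.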

Additional observations from a re-analysis of the deposited data

Results flagged for a closer look

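Among the 8 yoked arrays, array 63 lay far from the other 7 in many values. It had the lowest median correlation with other arrays (0.642), the highest disagreement between probe sets (1.46), the lowest 3′ to 5′ ratio (-0.0432, log2), the highest mean log2 spike-in signal (15.9) and the highest median signal (277.75). For genes, a single array far from the rest of the yoked group was found for 25 of the 104 gene values tested. Chance alone gives about 1 in 20 for independent groups of values. These values share the same 8 arrays, and many genes were chosen by p in them, so the count cannot be set against that rate. Array 63 held the lowest yoked signal of Hpca (1968.5), Mmadhc (90.5), Ntan1 (79.6), Rheb (968.5), Arc (635.7), Scn1a (24.0), Nr3c2 (207.6), Mbp (197.5), Mobp (1272.6), Itpka (53.5), Psmb1 (118.4) and Hspa5 (94.3). It held the highest yoked signal of Syn1 (1869.2), Bst1 (1039.5), Flnc (780.8), Fos (2477.1), Ppp3r1 (828.3), Vamp1 (936.4), Nfasc (928.3), Cd14 (1327.3), RT1-Ba (1220.4), Col1a1 (1156.2) and Insr (868.3). The 2 values on other arrays were the highest yoked signal of Ttr, 5082.5 on array 25, and the lowest of Grin2d, 115.8 on array 27.

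The same 104 gene values, many chosen by p in these arrays, were searched for opposite directions at the 2 ages. Mmadhc and B2m were found, without a test having shown a difference, and the share over all genes was not counted. Mmadhc was above the aged yoked mean in all 13 unimpaired rats and below the young yoked mean in all 6 young hidden platform rats, an age difference of 1.03 on the log2 scale. The aged yoked mean of Mmadhc includes array 63, at 90.5 against 233.1 to 491.2 on the other yoked arrays. B2m lay on the same sides of the yoked means, with an age difference of 1.01. Neither age difference passed the adjusted threshold (limma adjusted p = 0.921 for both).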

How the results depend on the processing

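The count of 0 probe sets past the adjusted threshold was the same in 37 of 38 alternatives of the unimpaired minus yoked comparison, and array quality weights gave 3 (Homer1, Mapkapk3 and Slit3). With weights, 690 probe sets had an unadjusted p under 0.05, against 194 without, and the number was 568 without arrays of low correlation, 612 without arrays of high disagreement, 469 in the 21 arrays alone, 316 with all 79 arrays in the fit, 127 with the 3′ over 5′ signal ratio in the model, 117 with a 60% filter and 85 after quantile normalization. In alternatives chosen after seeing the data it was 125 without arrays 81 and 63 and 592 in these 2 groups alone without them. Leaving out 1 array gave 384 without unimpaired array 81, 128 without unimpaired array 20, 123 without unimpaired array 89 and 98 without yoked array 63. The unimpaired minus impaired, young and age difference comparisons kept 0 adjusted calls in their 10 alternatives each. Median centring takes 1 value from all genes of an array, so it raised all 31 list medians by the same amount. In 7 lists this amount exceeded the spread between animals, which was small there. Their medians became 0.27 for effectors, 0.21 for cAMP and cGMP signalling, 0.20 for MAP kinase and 0.091 for spine. Those of channels, interneurons and microglia became 0.073, 0.28 and 0.23. With the 3′ over 5′ signal ratio in the model, the CaM kinase list median was -0.19. The 12 genes of smallest p in each direction and Homer1 probe set 3 kept their sign throughout. They were chosen by p in these same arrays, so the kept sign is no separate support. Of the 80 gene values outside these 24 genes, 13 changed sign in at least 1 alternative. Of 31 list medians, 20 changed sign in at least 1 alternative other than leaving out an array, 11 of them under median centring. No paired analysis was possible because the labels do not state whether a yoked rat was matched to a trained rat. Any such pairing is left out of the fits. The signal of dim probe sets, which the files do not set against background, limits their precision.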
